A study of Mus musculus with 10 samples.

Results

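A list of 36 genes known to be imprinted in mice, chosen by name and from 16 loci, was followed out of 32903 genes to which the transcripts of the series could be assigned. Of the loci, 8 hold several listed genes and 8 hold a single one. RNA had been sequenced in 10 libraries from preadipocytes that came from inguinal fat under the skin (iSAT) of male mice with the label WT C57 BL6. Cells of 5 libraries received DMSO as vehicle, and cells of the other 5 libraries received 2.5 µM BPS in DMSO. BPS stands for bisphenol S, one of the compounds that replaced bisphenol A in plastics, and the study concerns reactive oxygen species and fat cell formation under such compounds. The age of the mice, the time of exposure, and whether replicates came from separate animals or dishes were not given in the sources used here, so p-values measure only the spread between these libraries. The libraries are from an inbred strain and were counted per transcript, so the values are summed over both parental alleles and hold no information on which allele was read.

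Imprinted genes are expressed mainly or only from the allele inherited from 1 parent. They lie in clusters in which DNA methylation, laid down in the germ line at a control region, sets which parental copy is active. Many of them act on fetal growth, on the cell cycle and on the expansion of fat and muscle, and several work through long noncoding RNAs that silence or accompany their protein-coding neighbours. In fat precursors the best known member is Dlk1, also called preadipocyte factor 1, a transmembrane relative of the Notch ligands that holds back the step to the adipocyte.

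Totals of estimated counts were 38200573 to 42314795 per library in DMSO and 37920689 to 42717227 in BPS. The 14 preadipocyte and fibroblast markers were all present, with a summed level of 38560 to 41890 CPM with DMSO and 37210 to 42350 CPM with BPS. Most of that sum was Col1a1 and Col3a1 (21800 and 12700 CPM in DMSO). Of the 14, 3 were called, Cd34, Itgb1 and Thy1, all higher with BPS (log2 fold change 0.28, 0.079 and 0.19), beside 4.88% of all genes. DESeq2 also called Pdgfra, which was lower (-0.066, edgeR's adjusted p = 0.0772). CPM are the assigned counts divided by the library size and scaled with TMM factors. Mature adipocyte markers summed to 0.0837 to 0.228 CPM with DMSO and to 0.0501 to 0.169 CPM with BPS, and Adipoq had 0 to 3 counts. Macrophage markers (6 of 10 at 10 counts in 5 libraries, Csf1r at 0), endothelial markers (9 of 9) and Schwann and neural markers (5 of 7) had 0 genes past the threshold. The unadjusted p of edgeR was under 0.05 for 0, 0 and 1 of them, and DESeq2 and limma-voom also called 0. The library codes placed all DMSO libraries before all BPS libraries, so a batch in that order and the treatment cannot be told apart.

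Of the 36 genes, 32 reached 10 counts in at least 5 libraries, and the same number passed the filter of the test. The other 4 were Phlda2 (0 to 1 counts per library), Magel2 (0 to 2), Usp29 (0 to 5) and Ascl2 (0 to 7), which encode a small growth-restraining protein of the placenta, a ubiquitin ligase partner, a deubiquitinase and a transcription factor. A difference in them was not detectable at this depth. Together the 36 genes held 0.537% of the assigned counts, and Gnas alone held 0.135%.

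Several of these RNAs are also precursors of microRNAs, which the counted long RNAs do not measure. In the RefSeq annotation of GRCm38.p6, 33 microRNA hairpins lie within the span of 8 of the 36 genes, and 13 of them lie within Rtl1 on the opposite strand. The hairpin within H19, miR-675, is shown because H19 was the member that changed. It lies at chr7:142577064-142577147 on the minus strand, in an 84-base stretch that a search placed at bases 997 to 1080 of the 2286-base H19 RNA of GENCODE M21, and capitals mark its 2 mature arms.
Mir675 hairpin: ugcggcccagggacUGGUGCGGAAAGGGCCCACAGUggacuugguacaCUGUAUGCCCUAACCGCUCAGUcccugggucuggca

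The mature forms below stand for the hairpins of H19, Igf2, Mest, Meg3, Rian, Mirg and the antisense strand of Rtl1, from RefSeq, with the seed (bases 2 to 8) in capitals.
mmu-miR-675-5p: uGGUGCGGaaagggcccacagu
mmu-miR-675-3p: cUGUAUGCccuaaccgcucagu
mmu-miR-483-3p: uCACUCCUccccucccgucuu
mmu-miR-335-5p: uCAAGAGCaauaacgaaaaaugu
mmu-miR-770-5p: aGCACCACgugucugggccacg
mmu-miR-370-3p: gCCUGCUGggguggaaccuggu
mmu-miR-410-3p: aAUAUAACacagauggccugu
mmu-miR-127-3p: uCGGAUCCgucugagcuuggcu
These 8 do not share a seed. Over all 64 mature forms within the members there were 62 different seeds, and 2 of them were shared by a pair of forms. The table holds 34 entries for these hairpins, and the highest estimated count of any of them in any library was 19.3.

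H19 was lower under BPS, and it was the one member of 32 tested that passed the threshold, a share of 3.12% of the members beside 4.88% of all 14597 genes tested. The threshold throughout is an adjusted p under 0.05 (Benjamini-Hochberg over all genes) in the quasi-likelihood test of edgeR. Lower genes made up 265 of the 712 calls over all genes, or 1.82% of genes tested, and 447 were higher (3.06%), while scaling by library size alone gave 334 higher and 391 lower. Of the 32 members, 18 had a log2 fold change above 0, beside 50.2% of all genes. At an unadjusted p under 0.05 there were 8 of 32 members, beside 18.8% of all genes. The groups did not overlap for 2 of 32 members, H19 and Ndn, beside 6.91% of all genes. The median log2 fold change was 0.0052 over the members and 0.0003 over all genes, and the median size without sign was 0.062 and 0.056. No tested member had an estimate beyond 1.5-fold, and the largest log2 fold change in size was 0.36.

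**Figure D1:**
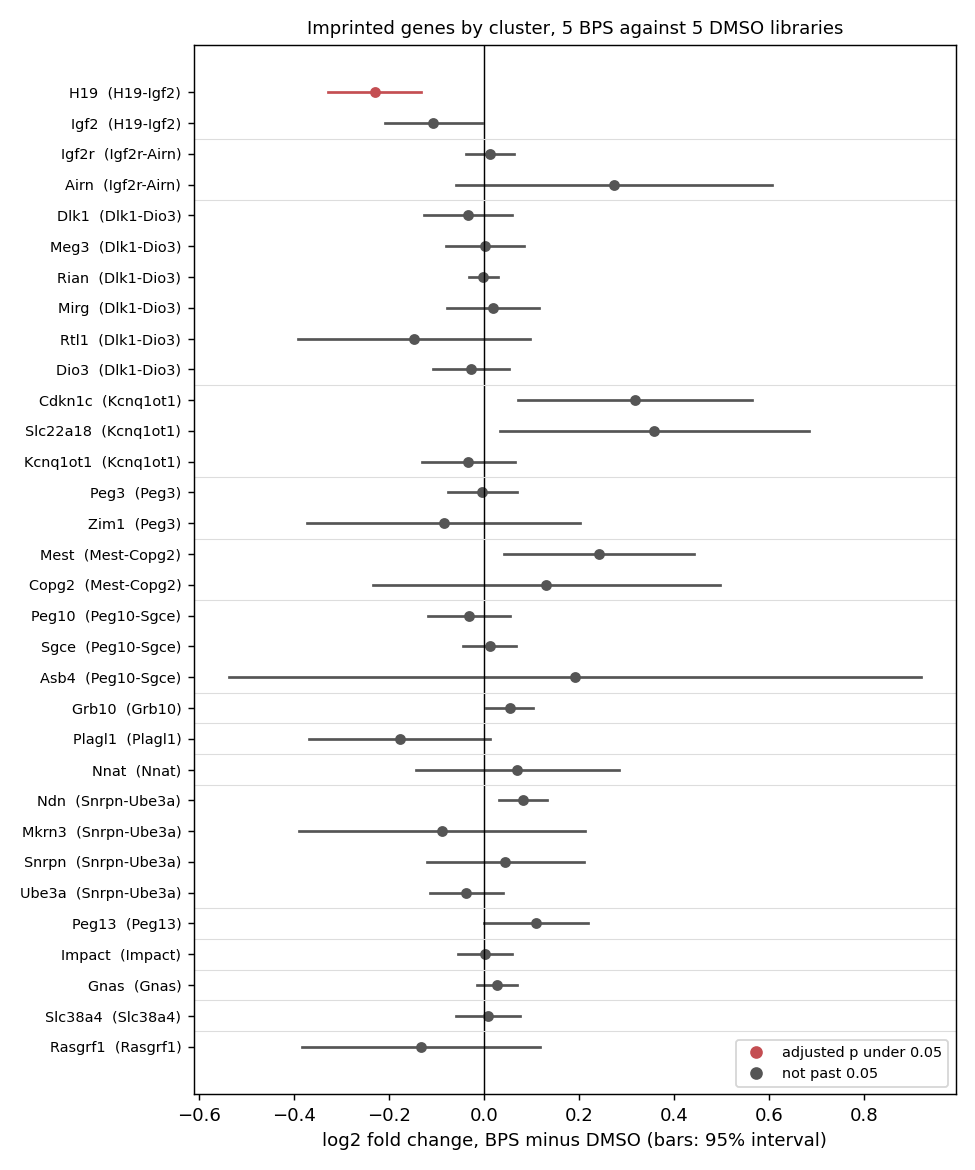
Log2 fold change, BPS minus DMSO, of the 32 tested imprinted genes, ordered by cluster; points are edgeR estimates from 5 against 5 libraries, bars are 95% intervals, and red marks an adjusted p under 0.05. H19 is the one red point, at -0.23, and 16 of the 32 intervals lie wholly between -0.2 and 0.2.

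H19 is a maternally expressed long noncoding RNA, transcribed beside the paternally expressed growth factor gene Igf2 under a shared control region. Its level was 763.6, 746.3, 784.3, 829.4 and 714.4 CPM in DMSO replicates 1 to 5, and 591.9, 690.5, 675.9, 643.9 and 669.1 CPM in BPS replicates 1 to 5. Every BPS library lay below every DMSO library, and BPS replicate 1 was the lowest. The mean went from 768 ± 43 to 654 ± 38.7 CPM (n = 5 each, SD), a log2 fold change of -0.23 (SE 0.045 and 95% interval -0.33 to -0.13, edgeR's adjusted p = 0.0141), so that H19 fell by 14.8%. Over the 20 other gene-level fits its log2 fold change ran from -0.26 to -0.20 and its adjusted p from 2.69e-05 to 0.043. Of its counts, 97.3% came from 1 of 2 RefSeq RNAs, which had a log2 fold change of -0.23 (SE 0.05) and lost the call when transcripts were tested without summing (edgeR's adjusted p = 0.153).

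Igf2, the growth factor of the pair, stood at 13.32, 13.04, 13.83, 13.26 and 12.9 CPM with DMSO and at 11.28, 12.4, 12.53, 13.32 and 12.09 CPM with BPS. The groups overlapped through BPS replicate 4, which was as high as the second highest DMSO library. Its log2 fold change was -0.11 (SE 0.047 and 95% interval -0.21 to -0.005, edgeR's adjusted p = 0.243), so both genes of the locus had negative values and only that of H19 passed. The transcripts of Igf2 differed in their values, and none was called. The one with 76.9% of the counts had -0.34 (SE 0.13). Those with 8.84%, 7.7% and 6.53% had 3.44 (SE 1.56), -0.021 (SE 0.85) and -1.03 (SE 0.6). Per kilobase of transcript, H19 stood at 336 ± 18.8 CPM per kb and Igf2 at 9.33 ± 0.253 CPM per kb in DMSO (SD, n = 5).

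Some markers of other cells differed between the same libraries as H19. The 7 skeletal muscle precursor genes summed to 13.8 to 15.4 CPM with DMSO and 20.8 to 25.9 CPM with BPS. Of this list 2 genes reached 10 counts in 5 libraries, 1 of them, Des, rose (13.2 to 20.9 CPM, log2 fold change 0.66, edgeR's adjusted p = 0.000107), and the defining genes Pax7, Myf5, Myod1 and Myog had 0 to 1 counts per library. The 7 mural markers summed to 78.4 to 83.8 CPM with DMSO and 86.4 to 100.1 CPM with BPS. The 2 called were Cspg4 (39 to 43.5 CPM, edgeR's adjusted p = 0.0468) and Mcam (20.1 to 25.9 CPM, edgeR's adjusted p = 0.0158). Of the 7, limma-voom called 1. Calls in the muscle, mural and mesothelial lists stand beside 4.88% of all genes called by edgeR. Rgs5, Notch3, Abcc9, Kcnj8 and Myh11 were not called (adjusted p of 0.358 to 0.937 by edgeR). The 6 mesothelial markers summed to 9.05 to 11 and 11 to 12.9 CPM, with Msln and Upk3b at 0. Of the 2 that were tested, Krt19 rose from 9.33 to 11.2 CPM (log2 fold change 0.27, edgeR's adjusted p = 0.0368), and Wt1 had 0.849 and 0.568 CPM and a negative log2 fold change (-0.59, edgeR's adjusted p = 0.155). Their part in the fall of H19 was not tested, and in bulk RNA fewer cells with H19 and less H19 per cell cannot be told apart.

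**Figure D2:**
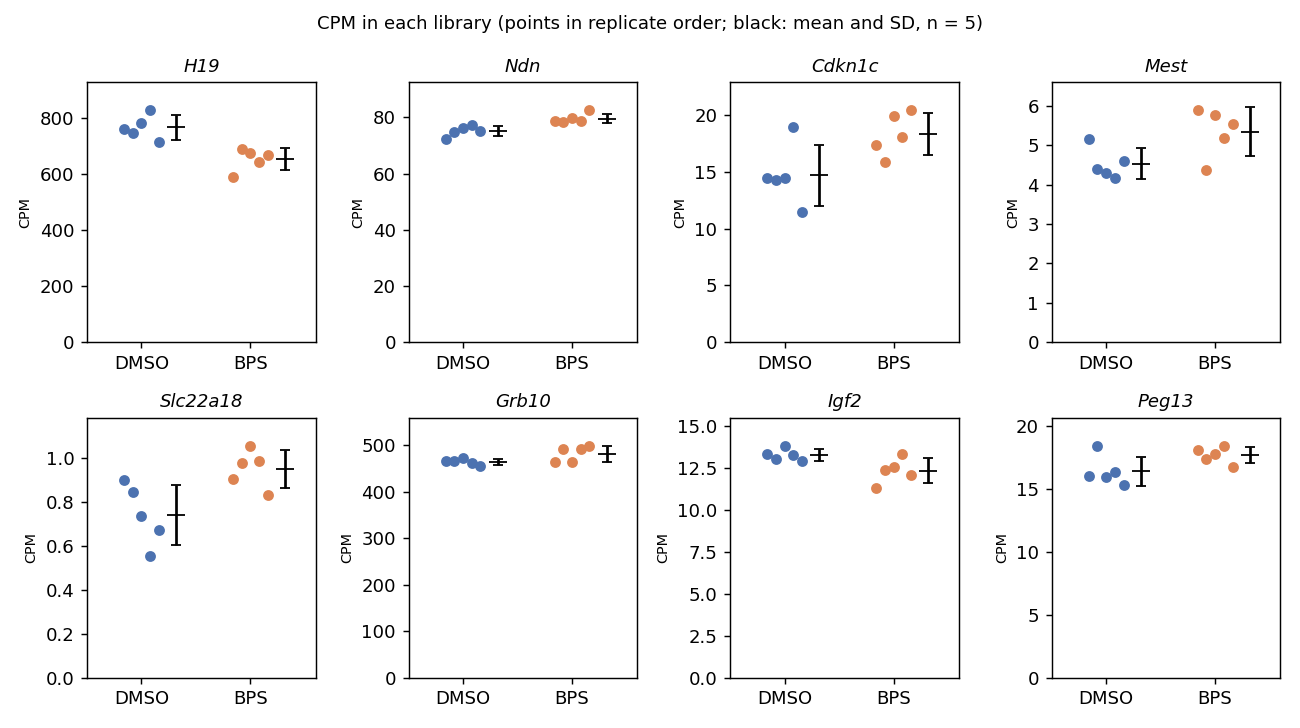
CPM in each library for the 8 imprinted genes with an unadjusted p under 0.05, blue for DMSO and orange for BPS, with the mean and SD (n = 5) in black and axes from 0. The 5 BPS points of H19 lie below and those of Ndn lie above all DMSO points, and the points of the other 6 genes overlap.

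The receptor that clears IGF2, Igf2r, is expressed from the maternal copy in mice, and the antisense RNA Airn silences the paternal copy. Igf2r stood at 281.3, 283, 263.6, 264.1 and 272.3 CPM with DMSO and at 272.7, 279.1, 269.3, 281.1 and 273.9 CPM with BPS. The BPS values lay within the DMSO range, with a log2 fold change of 0.012 (SE 0.023 and 95% interval -0.038 to 0.063, edgeR's adjusted p = 0.837). Airn, at 41 to 68 counts per library, had 1.4 ± 0.319 CPM with DMSO and 1.69 ± 0.151 CPM with BPS (SD, n = 5 each, log2 fold change 0.27, SE 0.15 and edgeR's adjusted p = 0.377). Its interval ran from -0.06 to 0.61. Airn overlaps Igf2r on the other strand, and the strand setting of the counting was not stated.

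The Dlk1-Dio3 locus held 6 listed genes, all of them tested, and 0 passed by edgeR, DESeq2 or limma-voom, with 0 at an unadjusted p under 0.05. Over all genes edgeR called 4.88% and DESeq2 6.5%, and 18.8% had an unadjusted p under 0.05 in edgeR. Dlk1 had 416.6, 443.3, 441.9, 452.8 and 442.1 CPM with DMSO and 388, 469.9, 423, 422.3 and 443.3 CPM with BPS. BPS replicate 1 was the lowest and BPS replicate 2 the highest of all 10 libraries, so the BPS group spanned the DMSO group. Its mean was 439 ± 13.5 CPM with DMSO and 429 ± 30.1 CPM with BPS (SD, n = 5 each), with a log2 fold change of -0.034 (SE 0.042 and 95% interval -0.13 to 0.059, edgeR's adjusted p = 0.746). The interval does not reach the value of H19, -0.23.

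The maternally expressed noncoding RNAs of this locus, Meg3, Rian and Mirg, carry small nucleolar RNAs and microRNAs within their spans. Rian had the smallest standard error of the 32 tested genes, with 834.2, 825.4, 816.7, 829 and 818.6 CPM with DMSO and 816.5, 809.4, 819.7, 829.2 and 844.7 CPM with BPS. Its coefficient of variation was 0.879% in DMSO and 1.66% in BPS, and its log2 fold change was -0.0015 (SE 0.014 and 95% interval -0.033 to 0.03, edgeR's adjusted p = 0.974). Meg3 stood at 617 ± 21.5 and 618 ± 35.9 CPM (n = 5 each, SD, log2 fold change 0.0025, SE 0.037 and edgeR's adjusted p = 0.984). Its 3 RefSeq RNAs held 59.3%, 37.6% and 3.11% of its counts, with log2 fold changes between 0.0009 and 0.0078. Mirg, with 398 to 472 counts per library, had 11.6 ± 0.554 and 11.8 ± 0.361 CPM (log2 fold change 0.019, SE 0.044 and edgeR's adjusted p = 0.87).

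The paternally expressed Dio3 encodes the deiodinase that inactivates thyroid hormone, and Rtl1 a protein derived from a retrotransposon. Dio3 had 73.8 ± 1.17 CPM with DMSO and 72.4 ± 4.41 CPM with BPS (SD, n = 5 each, log2 fold change -0.027, SE 0.036 and edgeR's adjusted p = 0.761), with BPS values of 67.32 to 78.26 CPM around the DMSO range of 71.77 to 74.86 CPM. Rtl1, at 127 to 199 counts, had 4.63 ± 0.645 and 4.17 ± 0.529 CPM (log2 fold change -0.15, SE 0.11 and edgeR's adjusted p = 0.543).

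**Figure D3:**
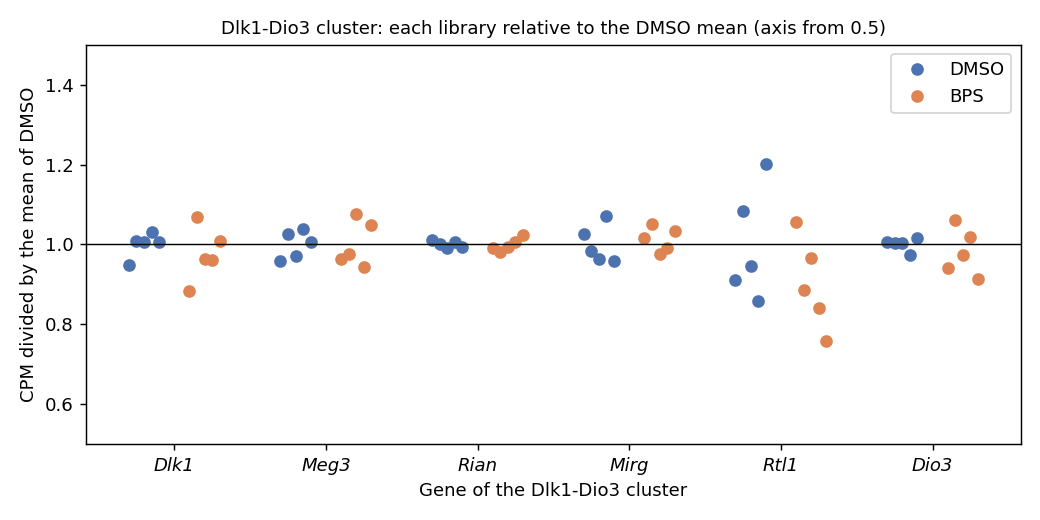
CPM of the 6 genes of the Dlk1-Dio3 locus in each library, divided by the mean of the 5 DMSO libraries of that gene (axis from 0.5 to 1.5), blue for DMSO and orange for BPS. The groups overlap in each gene, and the points of Rian lie closest together (819.7 CPM in BPS replicate 3 beside 816.7 CPM in DMSO replicate 3).

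In the locus controlled by the noncoding RNA Kcnq1ot1, 3 of 5 listed genes were tested and 0 were called by edgeR, DESeq2 or limma-voom. The called share over all genes was 4.88% in edgeR and 6.5% in DESeq2. An unadjusted p under 0.05 in edgeR was found for 2, Cdkn1c and Slc22a18, beside 18.8% of all genes. Kcnq1ot1 itself, a long paternally expressed RNA that silences its neighbours, had 42.09, 46.43, 41.07, 40.49 and 39.27 CPM with DMSO and 42.36, 38.24, 42.39, 40.31 and 41.21 CPM with BPS. The groups overlapped, with BPS replicate 2 the lowest and DMSO replicate 2 the highest library (log2 fold change -0.034, SE 0.045, 95% interval -0.13 to 0.064, edgeR's adjusted p = 0.762). Cdkn1c encodes the cyclin-dependent kinase inhibitor p57, which takes cells out of the cycle. It had 14.47, 14.24, 14.44, 18.89 and 11.44 CPM with DMSO and 17.37, 15.82, 19.92, 18.09 and 20.41 CPM with BPS. All BPS libraries lay above 4 of the 5 DMSO libraries, and DMSO replicate 4 lay among them. The log2 fold change was 0.32 (SE 0.11 and 95% interval 0.071 to 0.56) and missed the threshold (edgeR's adjusted p = 0.144). Without DMSO replicate 4 it was 0.42 and passed (edgeR's adjusted p = 0.0299), in a fit that called 3.3% of all genes. Its counts were spread over 6 RefSeq transcripts, of which the largest held 36.8% and had a log2 fold change of 0.63 (SE 0.24). Those with 26.7% and 17.9% of the counts had 0.10 and -0.04 (SE 0.27 each), so the transcripts differed in their values. Exact version matching of the accessions gave Cdkn1c a log2 fold change of 0.63 (edgeR's adjusted p = 0.0883).

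Slc22a18, a membrane transporter of the same locus, had 21 to 39 counts per library and stood at 0.74 ± 0.138 CPM with DMSO and 0.95 ± 0.0864 CPM with BPS (SD, n = 5 each). Its log2 fold change of 0.36 (SE 0.15 and 95% interval 0.033 to 0.69) was the largest in size of all members and did not pass (edgeR's adjusted p = 0.218). At this depth the interval reaches from nearly no difference to a difference of over 1.5-fold.

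Mest, a paternally expressed gene of the hydrolase fold family, is known for rising in fat tissue as it expands. It had 5.17, 4.4, 4.31, 4.16 and 4.61 CPM with DMSO and 5.89, 4.36, 5.77, 5.18 and 5.53 CPM with BPS. BPS replicates 1, 3, 4 and 5 lay above all DMSO libraries and BPS replicate 2 lay among them, for a log2 fold change of 0.24 (SE 0.092 and 95% interval 0.042 to 0.44, edgeR's adjusted p = 0.17). One RefSeq transcript held 89.9% of its counts, with a log2 fold change of 0.13 (SE 0.15) when tested alone. Its neighbour Copg2, a subunit of the coatomer of transport vesicles, stood at 11.15, 7.7, 9.73, 8.6 and 10.19 CPM with DMSO and at 6.22, 11.8, 9.75, 12.4 and 11.78 CPM with BPS. BPS replicate 1 was the lowest library for Copg2 and the highest for Mest, and the log2 fold change of Copg2 was 0.13 (SE 0.17 and 95% interval -0.23 to 0.50, edgeR's adjusted p = 0.748).

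The Mest promoter is printed because it held 2 matches to a short motif, the highest number in any member's window. The choice of members did not use this motif. The hexamer TGCCGC, on either strand, is the methylated motif bound by ZFP57, the zinc finger protein that protects imprints in the early embryo. RefSeq promoter windows of 300 bases (250 before to 50 after a start, GRCm38.p6) were at hand for 29 of the 36 genes, 45 windows in all, and not for H19, Cdkn1c, Rtl1, Peg10, Sgce, Peg13 and Impact. The hexamer occurred in 10 of 45 windows (22.2%), from 9 genes, and in 11.6% of all 32851 windows. Of all windows, 1.53% held it 2 or more times. The members' windows held a median of 13 CG dinucleotides and all windows a median of 7, and the hexamer itself contains a CG. Windows of 1 gene can overlap, as 2 of Mest do. The 250 bases before 1 start of Mest, at chr6:30737800-30738049 on the plus strand, held 2 hexamers, shown in capitals as their reverse complement.
Mest promoter: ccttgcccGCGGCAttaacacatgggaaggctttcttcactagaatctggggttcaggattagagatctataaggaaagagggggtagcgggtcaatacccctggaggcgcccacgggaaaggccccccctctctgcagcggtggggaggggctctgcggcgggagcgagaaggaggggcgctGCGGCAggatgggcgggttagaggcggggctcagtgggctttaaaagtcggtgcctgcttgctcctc
A match shows that these letters are in the window, and nothing about binding or methylation, which were not measured.

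At the Peg3 locus, Peg3, a zinc finger protein of growth and maternal care, had 51.74, 52.31, 47.63, 49.88 and 47.48 CPM with DMSO and 50.98, 47.74, 51.35, 49.21 and 49.04 CPM with BPS. All BPS values fell within the DMSO range (log2 fold change -0.0039, SE 0.033, 95% interval -0.077 to 0.069, edgeR's adjusted p = 0.97). Zim1, its maternally expressed zinc finger neighbour, had 67 to 121 counts, 2.62 ± 0.39 CPM with DMSO and 2.47 ± 0.361 CPM with BPS, and a log2 fold change of -0.085 (SE 0.13 and edgeR's adjusted p = 0.796), which turned to 0.80 under exact version matching of accessions. At Peg10-Sgce, Sgce, a sarcoglycan, stood at 67.24, 68.8, 67.96, 70.38 and 65.45 CPM with DMSO and at 66.95, 67.35, 71.93, 67.75 and 68.62 CPM with BPS. Neither Sgce (log2 fold change 0.012, SE 0.026, adjusted p = 0.868) nor the retrotransposon-derived Peg10 (60.9 ± 3.11 and 59.6 ± 2.69 CPM, -0.032, SE 0.04, adjusted p = 0.743) passed in edgeR. Asb4, a ubiquitin ligase adaptor, had 13 to 42 counts and 0.625 ± 0.234 and 0.707 ± 0.313 CPM, with a log2 fold change of 0.19 (interval -0.54 to 0.92, edgeR's adjusted p = 0.823).

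Ndn encodes necdin, a protein of the MAGE family that restrains proliferation and adipogenesis, and is paternally expressed from the Snrpn-Ube3a locus. It had 72.25, 74.78, 76.11, 77.46 and 75.25 CPM with DMSO and 78.88, 78.26, 79.64, 78.54 and 82.56 CPM with BPS. Every BPS library lay above every DMSO library, but by little, from 75.2 ± 1.93 to 79.6 ± 1.75 CPM (n = 5 each, SD). The log2 fold change was 0.082 (SE 0.023 and 95% interval 0.032 to 0.13, edgeR's adjusted p = 0.0666). The DESeq2 Wald test, which called 6.5% of all genes, called Ndn with an adjusted p of 0.0462, and over all gene-level fits its adjusted p ran from 0.0462 to 0.139. The other tested genes of the locus were Snrpn, a splicing protein (5.82 ± 0.314 and 6.01 ± 0.611 CPM, log2 fold change 0.045), Mkrn3, a ring finger protein (1.01 ± 0.092 and 0.955 ± 0.16 CPM, -0.088) and Ube3a, a ubiquitin ligase (69.8 ± 2.22 and 68 ± 3.41 CPM, -0.037), with adjusted p of 0.815, 0.812 and 0.639 by edgeR. Snrpn shares its RNA with Snurf, so reads of both cannot be told apart.

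Of the 8 genes listed singly, 0 passed in edgeR, DESeq2 or limma-voom, beside 4.88% of all genes in edgeR and 6.5% in DESeq2. An unadjusted p under 0.05 in edgeR was found for 2, Grb10 and Peg13, beside 18.8% of all genes. Grb10, an adaptor that damps signalling from the insulin and IGF1 receptors, had 465.2, 465.2, 473.1, 462.4 and 455 CPM with DMSO and 463.8, 491.3, 462.9, 492 and 499 CPM with BPS. BPS replicates 2, 4 and 5 lay above all DMSO libraries and BPS replicates 1 and 3 among them (log2 fold change 0.054, SE 0.023, 95% interval 0.003 to 0.10, edgeR's adjusted p = 0.235). Plagl1 encodes a zinc finger transcription factor that binds at other imprinted loci. It stood at 44.38, 51.1, 53.87, 53.01 and 42.26 CPM with DMSO and at 37.37, 41.68, 46.91, 40.43 and 50.09 CPM with BPS. The groups overlapped (log2 fold change -0.18, SE 0.087, 95% interval -0.37 to 0.013, edgeR's adjusted p = 0.305), and the DMSO libraries alone spread by 10.8% (coefficient of variation).

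Gnas encodes the stimulatory G protein subunit of hormone receptors and, from other starts, further imprinted products. It had 1284, 1343, 1360, 1377 and 1318 CPM with DMSO and 1375, 1363, 1384, 1348 and 1338 CPM with BPS (log2 fold change 0.027, SE 0.019, 95% interval -0.015 to 0.069, edgeR's adjusted p = 0.515). DMSO replicate 1 was the lowest and BPS replicate 3 the highest, and the remaining libraries overlapped. Of its 19 RefSeq transcripts, 3 held 53.6%, 24.4% and 12.8% of the counts. RefSeq lists the one with 53.6% as a noncoding RNA, so the level of Gnas is not that of the protein-coding RNA alone. The log2 fold changes of these 3 were 0.049 ± 0.046, -0.037 ± 0.13 and 0.086 ± 0.054 (± SE), in the same order.

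Peg13, a noncoding RNA within an intron of Trappc9, had 16.04, 18.38, 15.94, 16.34 and 15.3 CPM with DMSO and 18.1, 17.4, 17.76, 18.45 and 16.76 CPM with BPS. Each BPS library lay above 4 of the 5 DMSO libraries (log2 fold change 0.11, SE 0.05 and edgeR's adjusted p = 0.265). Impact, a regulator of the translational stress kinase GCN2, had 59.79, 57.44, 57.09, 59.75 and 56.24 CPM with DMSO and 57.62, 55.78, 58.88, 59.67 and 58.8 CPM with BPS. Slc38a4, an amino acid transporter, had 44.48, 42.31, 43.94, 43.46 and 41.23 CPM with DMSO and 42.76, 41.97, 42.42, 43.33 and 46.13 CPM with BPS. The groups of Impact and of Slc38a4 overlapped, with log2 fold changes of 0.0022 (SE 0.026) and 0.0078 (SE 0.031) and adjusted p of 0.979 and 0.93 by edgeR.

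Nnat, a small membrane proteolipid, had 1.96, 2.5, 2.46, 2.82 and 2.43 CPM with DMSO and 2.71, 2.44, 2.6, 2.59 and 2.43 CPM with BPS (log2 fold change 0.07, SE 0.098 and edgeR's adjusted p = 0.771). Rasgrf1, an exchange factor for Ras, had 2.37, 2.71, 2.05, 2.21 and 2.18 CPM with DMSO and 2.56, 2.07, 1.9, 2.14 and 1.83 CPM with BPS (log2 fold change -0.13, SE 0.11 and edgeR's adjusted p = 0.599). Both genes rested on 66 to 108 counts per library, and their groups overlapped.

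Levels between genes can be set side by side only per length. For 23 of the 32 tested genes a transcript length in GENCODE M21 covered at least 80% of the counts. The order below holds only for these 23. Rian and Dlk1, at 824.8 and 439.3 CPM in DMSO, were not among them, so their places are not known. In DMSO the order began with Gnas at 850 ± 23.4 CPM per kb, H19 at 336 ± 18.8, Meg3 at 92.7 ± 3.24, Grb10 at 92 ± 1.29, Sgce at 40.1 ± 1.08, Dio3 at 36.3 ± 0.574 and Igf2r at 30.7 ± 1.03 CPM per kb (SD, n = 5). The ranges over the 10 libraries overlapped between Meg3 and Grb10 and between no other neighbours among these 7. Igf2, Plagl1 and Mirg overlapped at 8.92 to 9.33 CPM per kb, as did the chain from Peg13 (3.47) through Snrpn, Copg2, Nnat and Mest to Airn (1.38). In BPS H19 stood at 286 ± 16.9 CPM per kb.

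**Figure D4:**
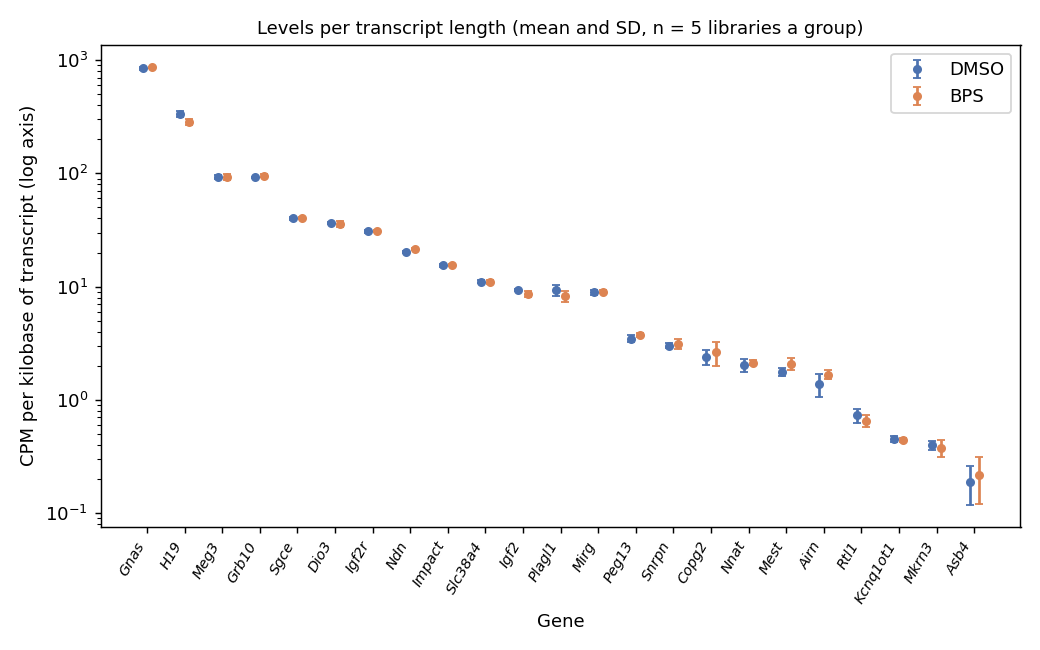
Mean level in CPM per kilobase of transcript (log axis) of the 23 imprinted genes with a known length, blue for DMSO and orange for BPS, with the SD over 5 libraries as bars. Levels run from 850 CPM per kb for Gnas to 0.19 CPM per kb for Asb4 in DMSO. H19 is second of these 23, at 336 in DMSO and 286 in BPS, and Rian and Dlk1 are not shown.

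By parental copy, 10 of 12 maternally expressed members were tested, with a median log2 fold change of 0.016, 7 above 0 and 3 below, and H19 as the call. Of 21 paternally expressed members 19 were tested, with a median of -0.0039, 9 above 0 and 10 below, and 0 called (also 0 by limma-voom, and Ndn alone by DESeq2). Over all genes edgeR called 4.88% and DESeq2 6.5%, and 50.2% had a log2 fold change above 0. The 3 members whose parental copy depends on tissue or transcript, Grb10, Ube3a and Gnas, had values between -0.037 and 0.054. Values within a locus stand side by side as follows. H19 had -0.23 and Igf2 -0.11, Slc22a18 0.36, Cdkn1c 0.32 and Kcnq1ot1 -0.034, and Mest 0.24 and Copg2 0.13. Igf2r had 0.012 and Airn 0.27, and Peg3 -0.0039 and Zim1 -0.085. Values ran from -0.15 to 0.019 at Dlk1-Dio3, from -0.032 to 0.19 at Peg10-Sgce and from -0.088 to 0.082 at Snrpn-Ube3a.

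Whether neighbours in a locus vary together among libraries of 1 group was examined for 10 pairs, after subtracting each group's mean of log2 CPM. By exact permutation within groups 0 of 10 Pearson correlations passed at an adjusted p under 0.05, and 0 had an unadjusted p under 0.05. The highest Pearson correlation was that of H19 with Igf2, with Pearson's r of 0.52 (p = 0.165, adjusted p = 0.945) and Spearman's rho of 0.44 (p = 0.238, adjusted p = 1) over 10 libraries, both two-sided and by exact permutation. It was 0.56 within DMSO and 0.55 within BPS, and -0.20 once DMSO replicate 5 and BPS replicate 1, the farthest from the median of H19, were left out. With single libraries left out, Pearson's r of H19 with Igf2 was 0.062 without BPS replicate 1, 0.80 without BPS replicate 4 (p = 0.0337, adjusted p = 0.337 by exact permutation) and 0.48 without DMSO replicate 5, so its size depends on BPS replicates 1 and 4. The highest rho was that of Meg3 with Dlk1, at 0.58 (p = 0.162, adjusted p = 1 by exact permutation), with an r of 0.31 (p = 0.518, adjusted p = 0.945). Meg3 and Rian, which lie next to each other on 1 strand, had an r of 0.24 (p = 0.613, adjusted p = 0.945 by exact permutation), and a rho of 0.091 (p = 0.833, adjusted p = 1).

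Genes around the members were read from 3 further lists. Of 46 other genes reported as imprinted in some mouse tissue, 32 were tested, and 4 rose and 0 fell (12.5%, beside 4.88% of all genes), with 4 called by DESeq2 and 2 by limma-voom (DESeq2 called Pde10a and not Atp10a, and limma-voom called neither Atp10a nor Ampd3). Cd81, a tetraspanin of the Kcnq1ot1 locus, went from 409.5 ± 7.32 to 430.8 ± 6.26 CPM (n = 5 each, SD, log2 fold change 0.073, SE 0.016 and edgeR's adjusted p = 0.026). Jade1, a chromatin-associated zinc finger protein, rose by 0.10 on the log2 scale (SE 0.02, edgeR's adjusted p = 0.017), and Atp10a, a phospholipid transporter beside Ube3a, by 0.11 (SE 0.027, adjusted p = 0.0457). The groups did not overlap for 5 of the 32 genes, beside 6.91% of all genes. For these 3 and the uncalled Nap1l4 every BPS library lay above every DMSO library. For Phactr2, also uncalled (log2 fold change -0.12, edgeR's adjusted p = 0.136), every BPS library lay below. Ampd3, an AMP deaminase, had 0.517, 1.15, 1.01, 1.55 and 1.17 CPM with DMSO and 2.86, 4.08, 1.06, 4.06 and 2.07 CPM with BPS. Its groups overlapped through BPS replicate 3, its log2 fold change was 1.38 (SE 0.36, edgeR's adjusted p = 0.0484), and limma-voom did not call it (adjusted p = 0.118). The call of Jade1 held with each library left out in turn. That of Cd81 was lost without DMSO replicate 1, 2, 3 or 5 or BPS replicate 4 or 5 (adjusted p by edgeR 0.0541 to 0.0708), that of Atp10a without any single library but BPS replicate 1 (0.0551 to 0.102), and that of Ampd3 without any but BPS replicate 3 (0.0557 to 0.109).

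Of 26 genes that keep imprints or methylate DNA, such as Dnmt1, Trim28, Uhrf1 and Zfp57, 25 were tested and 0 passed in edgeR, DESeq2 or limma-voom, beside 4.88% of all genes in edgeR, and 2, Rbbp4 and Dnmt3a, had an unadjusted p under 0.05 in edgeR, beside 18.8% of all genes. The median log2 fold change was -0.0021, with values from -0.11 to 0.27. Of 18 partners of imprinted growth genes all were tested and 0 passed in edgeR and limma-voom. Of these 18, 8 had an unadjusted p under 0.05 in edgeR, beside 18.8% of all genes, and 2, Igf1r and Prkaca, were called by DESeq2, beside 6.5% of all genes. Igf1r, the receptor through which IGF2 signals, stood at 110.4 CPM with DMSO and 116.4 CPM with BPS (log2 fold change 0.076, SE 0.021 and edgeR's adjusted p = 0.0582).

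Tested as single transcripts without summing, 82 transcripts of the members gave 0 calls by edgeR, beside 0.335% of 37588 transcripts, and 4, from H19, Igf2, Cdkn1c and Ndn, had an unadjusted p under 0.05, beside 6.83%. The 32 tested genes differ in how tightly the libraries bound them. In 8 of them the 95% interval lay within 0.1 of no change on the log2 scale and in 16 within 0.2, and the widest intervals were those of Asb4, Copg2, Airn and Slc22a18.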

How the data were processed

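RNA of 5 DMSO and 5 BPS preadipocyte libraries was measured. The authors deposited 1 table of estimated counts for 107384 RefSeq transcripts, made with kallisto 0.42.4 per the submitters' processing notes. Index, build and strand setting were not given in the sources used here. Columns were matched to samples by library code.

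Accessions were matched without version to a RefSeq gene table (GRCm38.p6, names only), which placed 86722 transcripts in 32903 genes with 93.1% of counts. Counts were summed per gene and rounded. filterByExpr kept 14597 genes, scaled by TMM factors of 0.9854 to 1.008. edgeR's quasi-likelihood test had no covariates, and the SE is the log2 fold change over the square root of F. Pairs of replicates gave chi-squares of 4.13 to 8.77 per degree of freedom, above sampling noise, so none was taken as the same library sequenced again. This measure cannot show whether libraries came from the same RNA, dish or animal. Group-centred correlations used log2(CPM + 0.5). The code was tested on simulated data.

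Members and lists were chosen with earlier results of these data known. Per-library values were given for called members and the highest member (by mean CPM) of each locus, plus Igf2, Dlk1, Cdkn1c, Mest and Ampd3, added after their values were seen. From other lists up to 5 called genes were named, plus uncalled genes behind small counts, also added then. Python 3.11.15 and R 4.3.3 were used with DESeq2 1.42.0, limma 3.58.1 and edgeR 4.0.16. Alternatives were other scalings, filters and tests, exact version matching, a replicate block, transcripts and leaving out each library.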

Additional observations from a re-analysis of the deposited data

Results flagged for a closer look

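For the 32 tested members and 4 called genes of the other imprinted list, 72 sets of 5 values were examined with Dixon's test at 95%, and 1 held a library far from its group. Chance gives about 1 in 20, or 3.6 of 72. Dio3 was 71.77 CPM in DMSO replicate 4, and 73.98 to 74.86 CPM in the other DMSO libraries. The difference of Dio3 between BPS and DMSO was not called by edgeR with or without that library (adjusted p = 0.761 and 0.69).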

How the results depend on the processing

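H19 was called in the main fit and in all 20 gene-level alternatives. The number of called members was 2 with the DESeq2 Wald test (H19 and Ndn) and 0 for transcripts without summing. That fit tested 37588 transcripts in place of 14597 genes, and why H19 lost its call there was not tested. With each library left out once the number was 1 to 2, the 2 without DMSO replicate 4 (H19 and Cdkn1c). The count over all genes, 712, was 371 with the replicate block and 328 with exact version matching, and leaving out each library once gave 449 to 774. It moved by over 1.5 times without DMSO replicate 2 (449) and BPS replicates 2 (463), 3 (465) and 4 (462). The block kept the call of H19 (log2 fold change -0.23, adjusted p = 0.043 by edgeR) and changed no other member's call, but ended the calls of all 4 other imprinted genes (Jade1 0.0595, Cd81 0.0622, Ampd3 0.0651 and Atp10a 0.12). Libraries of the same number did not pair: their deviations correlated at 0.076, -0.026, -0.03, 0.064 and -0.043, and 2 of 5 correlated best with their own number. The correlations of neighbours, with alternatives chosen after seeing the data, gave 0 calls throughout.

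Of 631 values of members under alternatives, 592 kept direction and side of the threshold, 2 gained a call and 37 changed sign, all of them in uncalled genes, and the cause was not tested. With library size alone these were Igf2r (-0.0025), Impact (-0.013), Meg3 (-0.012), Sgce (-0.0032) and Slc38a4 (-0.0068), with upper-quartile scaling Peg3 (0.0008) and Rian (0.0032), and with exact version matching Gnas (-0.043), Meg3 (-0.0015) and Zim1 (0.80). Leaving out single libraries gave ranges across 0 for Asb4 (-0.003 to 0.39), Dlk1 (-0.068 to 0.0009), Igf2r (-0.0003 to 0.026), Impact (-0.0089 to 0.017), Kcnq1ot1 (-0.056 to 0.0065), Meg3 (-0.025 to 0.023), Peg3 (-0.021 to 0.015), Rian (-0.011 to 0.0048), Sgce (-0.0065 to 0.023), Slc38a4 (-0.016 to 0.019) and Snrpn (-0.0074 to 0.089). Of 80 values of the 4 called genes of the other imprinted list, 39 lost the call and 0 changed sign. For the 4 genes under 100 counts in every library (Airn, Slc22a18, Asb4 and Mkrn3) the intervals are too wide to show a change the size of that of H19. The same holds for Copg2, at 248 to 440 counts (interval -0.23 to 0.50), and for Cdkn1c, Zim1, Rtl1 and Rasgrf1 (SE 0.11 to 0.13). It holds for Mest too, which had 0.24 (SE 0.092), larger in size than H19, and was not called. Plagl1 (SE 0.087, interval -0.37 to 0.013) and Nnat (SE 0.098, interval -0.14 to 0.28) were similarly wide. Snrpn had an SE of 0.076, beside 0.045 for H19.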
